A study of Mus musculus with 6 samples.

Results

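The subject is 8 mouse genes, Ptpn5, Slco5a1, Fam110c, Zxdc, Tacc1, Myo5b, Ncan and Tbc1d16, in beige adipocytes that carry floxed Tle3. They were picked by name, as strong and well-replicated differences between the 2 groups of the series whose protein products have little known role in fat cells. The counts compared here are therefore the values that chose them. Their levels and fold changes are given as a description with no test, and since the list has no threshold, no gene lies just outside it. Each name had 1 row among the 13962 genes of the table, and all 8 were among the 13192 genes with enough reads to be tested.

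The libraries came from preadipocytes of C57BL/6 inguinal white fat with the genotype TLE3F/F CreERT2, immortalized with the Large T antigen and differentiated in culture with insulin (20 nM), T3 (1 nM), rosiglitazone (1 uM) and an inducing cocktail of isobutylmethylxanthine (0.5 mM), dexamethasone (0.5 uM) and indomethacin (0.125 mM). The group labelled TLE3 KO (n = 3 libraries) received 4-hydroxytamoxifen at 500 nM on day 4 for 24 hours, which switches on the Cre recombinase fused to a mutant estrogen receptor. The control group (n = 3 libraries) received ethanol for the same time, carried the same floxed alleles and the same Cre, and both were harvested on day 10. No tamoxifen-treated cells without Cre are among the samples, so the deletion, the Cre activity and the compound cannot be told apart. Neither the promoter that drives Cre nor whether replicates were separate cultures is given in the labels, so p-values speak only of library-to-library spread, possibly technical.

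TLE3 is a co-repressor of the Groucho family. It does not bind DNA itself and is brought to genes by factors such as RUNX, TCF/LEF and HES proteins, and in fat cells it is known to act together with PPAR gamma and against the beige factors PRDM16 and EBF2. The 8 genes sit in parts of the cell with no common pathway: a tyrosine phosphatase (Ptpn5), a membrane transporter (Slco5a1), centrosome and microtubule proteins (Fam110c, Tacc1), a zinc finger transcription regulator (Zxdc), regulators of endosome traffic (Myo5b, Tbc1d16) and a matrix proteoglycan (Ncan).

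Library totals ran from 14606228 to 19294632 counts. Tle3 itself was at 286.9, 288.9 and 294.2 CPM (counts scaled to a common depth, on TMM-adjusted library sizes) in the libraries labelled knockout, against 151.4, 151.3 and 152.1 CPM in the controls. Gene-level Tle3 was thus higher, not lower, in the group labelled knockout. The log2 fold change of Tle3 was 0.94 (SE 0.0378). Gene-level counts take in exons inside and outside a deletion, and the labels do not say which exons are floxed, so the counts cannot check the labels. For that reason the group is named below by its label only. Adipocyte markers were abundant in both groups, with 6 of 6 in the table and a summed level of 9990 to 11509 CPM in the libraries labelled knockout and 9050 to 10782 CPM in controls. Their median log2 fold change was 0.17, and edgeR called 0 of the 6 (5 had an unadjusted p under 0.05, and DESeq2 called 2). The beige markers Ucp1, Cidea, Cox7a1 and Ppargc1a summed to 760.7 to 895.6 and 446 to 544.5 CPM in the same order, and all 4 rose (edgeR adjusted p 0.000119 to 0.00324). The 7 preadipocyte or fibroblast markers summed to 7979 to 8369 CPM in the libraries labelled knockout and 8125 to 9311 CPM in controls, where 1 rose (Dlk1) and 2 fell (Thy1, Pdgfra). The part of these marker shifts in the values below was not tested, and in bulk RNA fewer cells of a type and less RNA per cell cannot be told apart. The controls were not alike: control 3 was below controls 1 and 2 in Fabp4 (3761 against 4969 and 4813 CPM) and Cidea (188.7 against 228.3 and 250.6). It was above them in Thy1 (309.5 against 270.2 and 245.4), but not the lowest in Ppargc1a (87.8 against 87.6 and 94.5). Its part in the differences below was not tested.

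By edgeR's quasi-likelihood test at an adjusted p of 0.05, 12.3% of the tested genes changed, 6.91% upwards and 5.44% downwards. All 8 genes had CPM ranges that did not overlap between the groups, against 31.8% of all tested genes. That contrast chose the genes, so nothing is read from these counts. The 5 that were lower in the libraries labelled knockout were Ptpn5, Slco5a1, Fam110c, Zxdc and Tacc1, and the 3 that were higher were Myo5b, Ncan and Tbc1d16. The median absolute log2 fold change of the 8 was 1.23, beside 0.11 over all tested genes.

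**Figure D1:**
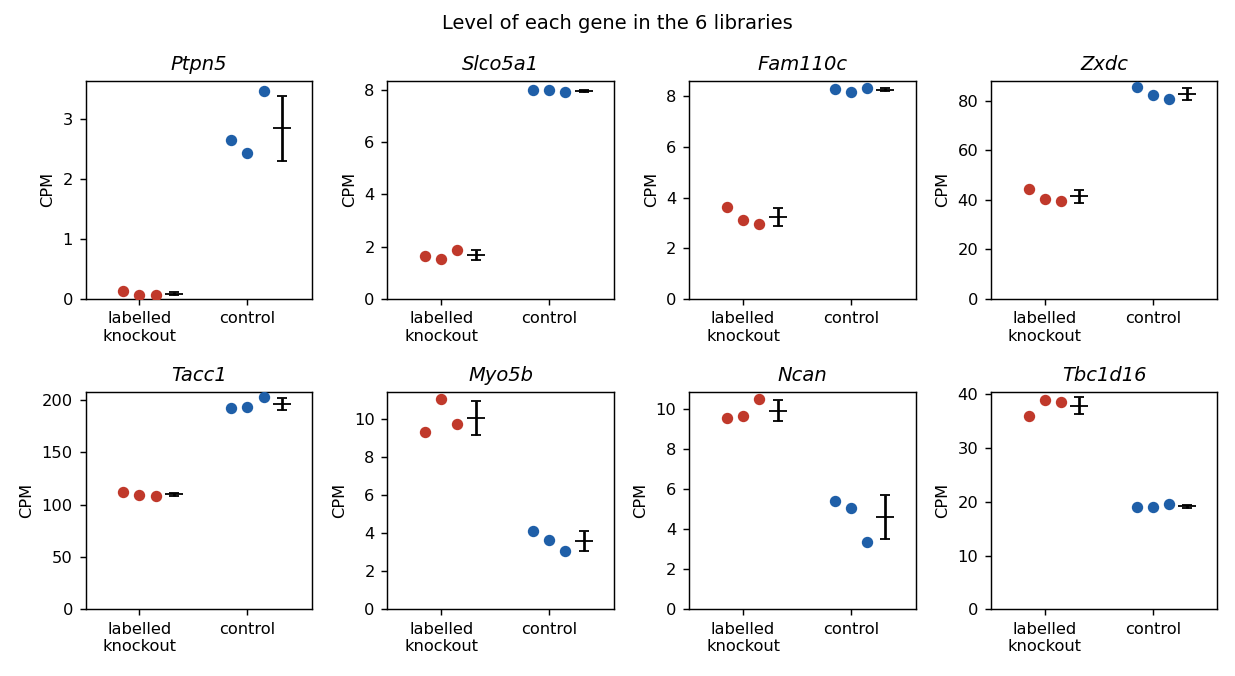
Level of each of the 8 genes in CPM (y axis from 0, a separate scale for each gene) in the libraries labelled knockout (red, left) and the controls (blue, right). Points are single libraries and the black bars beside them are the mean ± SD of 3; for each gene the 2 sets of points stand apart, from Ptpn5 at 0.0869 against 2.85 CPM to Tacc1 at 109.8 against 196 CPM.

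Ptpn5 showed the most extreme value of the set. It encodes STEP, a tyrosine phosphatase named for its abundance in the striatum, which in neurons dephosphorylates ERK and p38 kinases, the Src-family kinase Fyn and glutamate receptor subunits. The libraries labelled knockout held 2, 1 and 1 reads of Ptpn5, and the controls held 47, 36 and 68. In CPM this was 0.125, 0.0691 and 0.0670 against 2.65, 2.44 and 3.47, so the highest library labelled knockout lay 19.5-fold below the lowest control. Over the summed counts of 4 and 151, the control level was 32.9 times that of the libraries labelled knockout, with a 95% exact interval of 12.6 to 122.4 that covers counting error only. The fitted log2 fold change was −4.92 (SE 0.381); at so few reads it depends on the prior count. By size it ranked 1 among all 13192 tested genes.

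RefSeq (GRCm38.p6, a later build than the mm9 named in the submitters' processing notes) lists a pair of start sites for Ptpn5, both shown here because its reads in the libraries labelled knockout were so few. Each window runs from 250 bases before to 50 bases after the start, 5′ to 3′ on the gene's strand (minus). Capitals mark a match to the RUNX motif TGTGGT, searched on both strands; 16.8% of the 32851 promoters in the same table hold it.
Ptpn5, distal start, chr7:47133635-47133934: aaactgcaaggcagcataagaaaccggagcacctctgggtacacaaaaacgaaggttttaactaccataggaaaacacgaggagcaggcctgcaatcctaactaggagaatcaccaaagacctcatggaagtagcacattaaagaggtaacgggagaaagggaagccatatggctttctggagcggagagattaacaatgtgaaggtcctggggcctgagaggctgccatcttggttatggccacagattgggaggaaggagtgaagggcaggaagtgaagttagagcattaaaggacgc
Ptpn5, proximal start, chr7:47132549-47132848: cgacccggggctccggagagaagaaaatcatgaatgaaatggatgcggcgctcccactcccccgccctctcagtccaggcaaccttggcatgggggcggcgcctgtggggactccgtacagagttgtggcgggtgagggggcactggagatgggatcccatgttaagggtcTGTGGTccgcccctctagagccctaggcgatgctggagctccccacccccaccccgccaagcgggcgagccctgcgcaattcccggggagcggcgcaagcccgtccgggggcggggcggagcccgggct

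The match in the proximal window begins at position −79. That window is 69% G and C with 24 CpG pairs, and the distal one is 48.7% with 6, beside medians of 52.7% and 7 over all promoters of the table. Gene-level counts do not tell which start the reads came from. A match is a string of letters and was not tested for binding.

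No tested gene for a kinase that STEP acts on was called at the RNA level. STEP acts on the proteins, and RNA levels do not show their phosphorylation. Of 10 listed substrates 6 were tested, and edgeR called 0 of them (1 had an unadjusted p under 0.05, and DESeq2 called 0), with log2 fold changes from −0.12 to 0.07. They include Mapk3, Mapk11, Mapk14, Fyn and Ptk2b. The related phosphatases Ptpn7 and Ptprr were looked for, and 0 of the 2 were in the table. Neuronal markers were low in both groups: of 10 listed, 3 were in the table (Tubb3, Syn1 and Elavl3), and they summed to 2.49 to 3.68 CPM in the libraries labelled knockout and 3.32 to 4.19 CPM in controls.

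Slco5a1 encodes an organic anion transporter of the SLCO family whose transported substrates are not established. Its level was 1.62, 1.52 and 1.87 CPM in the libraries labelled knockout, against 8.01, 7.99 and 7.91 CPM in the controls. The controls differed among themselves by far less than they differed from the other group. The log2 fold change was −2.25 (SE 0.14), a level 4.75 times lower in the libraries labelled knockout, and it ranked 14 by size among tested genes. No other member of the family fell. Of the 3 that were tested, Slco4a1 rose 2-fold, to 8.43 ± 0.789 CPM in the libraries labelled knockout against 4.22 ± 0.364 CPM in controls (SD, n = 3 each; edgeR adjusted p 0.000893). Slco2a1 was at 89.8 ± 3.63 and 82.0 ± 8.74 CPM (adjusted p 0.262) and Slco3a1 at 14.6 ± 0.846 and 16.3 ± 1.94 CPM (adjusted p 0.304) in the same order.

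Fam110c belongs to a small family of centrosome and spindle pole proteins, and the human protein has been tied to cell spreading and migration and to the kinase AKT1. It stood at 3.62, 3.11 and 2.95 CPM in the libraries labelled knockout, against 8.29, 8.19 and 8.32 CPM in the controls. The log2 fold change was −1.35 (SE 0.124). Its paralog Fam110b fell as well, by 0.44 on the log2 scale, to 5 ± 0.425 CPM in the libraries labelled knockout against 6.81 ± 0.343 CPM in controls (adjusted p 0.035). That call was lost with DESeq2 and without any 1 of 5 libraries (adjusted p 0.0583 to 0.144). Fam110a was at 8.0 ± 0.465 and 8.62 ± 0.483 CPM (adjusted p 0.556). The FAM110 partners Cspp1, a spindle protein gene, and Akt1 had log2 fold changes of −0.02 and 0.02, and edgeR called 0 of the 2 (0 with an unadjusted p under 0.05, and 0 by DESeq2).

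Tacc1 was the most abundant of the 8 in reads. Its coiled-coil protein binds the microtubule polymerase encoded by Ckap5 and has also been reported to bind thyroid hormone and retinoic acid receptors. It had 111.7, 109.2 and 108.3 CPM in the libraries labelled knockout, against 192.2, 192.8 and 203 CPM in the controls, a log2 fold change of −0.84 (SE 0.0414). Of its paralogs, edgeR called 0 of 2 (1 had an unadjusted p under 0.05, and DESeq2 called 0). Tacc3, the paralog of the mitotic spindle, was at 78.5 ± 5.86 and 89.0 ± 3.28 CPM (adjusted p 0.0643), and Tacc2 was at 27.0 ± 0.778 and 28.1 ± 1.83 CPM (adjusted p 0.62), in the libraries labelled knockout and in controls. Genes of dividing cells, among which Tacc3 acts, were not called: for the 5 listed, which include Mki67 and Top2a, edgeR and DESeq2 each called 0, 0 had an unadjusted p under 0.05, and the summed level was 845.1 to 892.7 CPM against 861.8 to 923.1 CPM. Of 4 listed partners of TACC family proteins, 1 rose, Tdrd7, an RNA granule protein gene (log2 0.34, adjusted p 0.0124, and 0.0636 without labelled knockout 3). Ckap5 was at 217.5 ± 11.2 and 206.2 ± 6.53 CPM (adjusted p 0.323). Among 7 thyroid hormone and retinoid receptors 1 fell, Rxra, the common partner of these receptors and of PPAR gamma, at 93.8 ± 4.98 against 118.2 ± 4.34 CPM (log2 −0.33, adjusted p 0.00234). The called shares of the TACC partners and of these receptors were 25% and 14.3%, beside 12.3% of all tested genes.

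Zxdc encodes a zinc finger protein that in human cells works with the coactivator CIITA to switch on MHC class II genes. It was at 44.1, 40.2 and 39.5 CPM in the libraries labelled knockout, against 85.6, 82.1 and 80.8 CPM in the controls. The log2 fold change was −1.0 (SE 0.0536). The X-linked relative Zxdb was at 4.11 ± 0.643 CPM in the libraries labelled knockout and 4.49 ± 0.577 CPM in controls (adjusted p 0.672). Of 13 genes of MHC class II expression 8 were tested and 1 was called, or 12.5% beside 12.3% of all tested genes. It was Rfxank, a subunit of the RFX complex, which rose (log2 0.30, adjusted p 0.0481). That call was lost with DESeq2 and without any 1 of 5 libraries (adjusted p 0.0628 to 0.152). The class II invariant chain gene Cd74 was at 10.3 ± 2.72 and 11.2 ± 2.71 CPM (adjusted p 0.751). Leukocyte markers, of which 3 of 5 were in the table, summed to 5.16 to 7.26 CPM in the libraries labelled knockout and 4.87 to 6.58 CPM in controls.

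The promoter of Zxdc is shown because it held matches to 2 of the 6 motifs searched, those of TCF/LEF and of EBF. Capitals mark, in order, TCAAAG (the other strand of the TCF/LEF motif CTTTGA, held by 16% of promoters) at position −219 and CCCCTGGG (the EBF motif CCCNNGGG, held by 13.7%) at position −60.
Zxdc, plus strand, GRCm38.p6 chr6:90369244-90369543: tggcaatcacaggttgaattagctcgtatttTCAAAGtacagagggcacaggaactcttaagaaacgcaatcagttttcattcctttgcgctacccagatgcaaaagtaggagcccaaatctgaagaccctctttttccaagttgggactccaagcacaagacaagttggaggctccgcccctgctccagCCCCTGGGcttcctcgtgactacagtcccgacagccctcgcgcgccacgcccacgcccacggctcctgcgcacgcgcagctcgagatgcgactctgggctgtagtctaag

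Myo5b had the highest fold among the 3 genes that were higher in the libraries labelled knockout. It encodes myosin Vb, a motor that carries recycling endosomes along actin through Rab11 and its adaptor RAB11FIP2, and whose loss in humans causes the gut disorder microvillus inclusion disease. Its level was 9.35, 11.1 and 9.78 CPM in the libraries labelled knockout, against 4.12, 3.66 and 3.06 CPM in the controls, a 2.79-fold higher level (log2 1.48, SE 0.136). Only 4 tested genes had a higher fitted fold change. The far more abundant paralog Myo5a, which in adipocytes is known to move GLUT4 vesicles, fell slightly, to 164.9 ± 2.18 CPM against 184.8 ± 7.2 CPM (log2 −0.16, adjusted p 0.0281). Without any 1 of 5 libraries that call was lost (adjusted p 0.0549 to 0.0968). Of 6 epithelial markers 1 was in the table, Krt19, at 1.93 to 2.77 CPM in the libraries labelled knockout and 3.52 to 5.08 CPM in controls. Krt19 fell (log2 −0.75, edgeR adjusted p 0.0309), and DESeq2 called it too.

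Per length, Myo5b stood at 1.03 ± 0.0911 CPM per kilobase of annotated exon in the libraries labelled knockout and 0.37 ± 0.0541 in controls, and Myo5a at 11.1 ± 0.147 and 12.5 ± 0.487. Among 13 tested partners of the recycling endosome, 2 rose and 1 fell, namely Rab10 (log2 0.16, adjusted p 0.0349), the calmodulin gene Calm2 (0.16, 0.0422) and Rab11fip2 (−0.22, 0.017). Of 13 other unconventional myosins 0 rose and 3 fell, among them Myo18a (log2 −0.28, adjusted p 0.00601) and Myo10 (−0.19, 0.0367). The called share was 23.1% in either list, beside 12.3% of all tested genes, and the difference was not tested. The calls of Rab10, Calm2, Rab11fip2 and Myo10 were lost in 3 to 6 of 11 alternative fits (adjusted p there 0.0517 to 0.146).

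Tbc1d16 encodes a GTPase-activating protein which, in human cells, switches off Rab4A on endosomes and slows recycling of the transferrin and EGF receptors. It had 36.0, 39.0 and 38.6 CPM in the libraries labelled knockout, against 19.1, 19.0 and 19.6 CPM in the controls. The controls lay close together. The log2 fold change was 0.98 (SE 0.0608), or 1.97-fold. Of 32 other tested genes of the TBC family, 0 rose and 1 fell, Tbc1d2b (log2 −0.39, adjusted p 0.000624), or 3.12% beside 12.3% of all tested genes. Of 7 Rab4 and Rab5 GTPases and recycled receptors, 2 rose and 1 fell, or 42.9% beside the same 12.3%. Tfrc, the transferrin receptor through which cells take up iron, stood at 1180, 1203 and 1261 CPM in the libraries labelled knockout and 687.3, 681.9 and 513 CPM in controls, and it rose 1.94-fold (adjusted p 0.000183). Rab5c rose (log2 0.26, adjusted p 0.00287) and Egfr fell, to 57.1 ± 1.71 CPM against 82.2 ± 9 CPM (log2 −0.53, adjusted p 0.00142). Rab4a, Rab4b, Rab5a and Rab5b were not called. RNA levels do not show how fast a receptor is recycled. Of the exon bases of Tbc1d16, 6.38% overlap the annotated gene Gm26888 on the opposite strand, and reads there cannot be assigned to 1 of the pair.

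Ncan encodes neurocan, a chondroitin sulfate proteoglycan of the brain matrix that binds hyaluronan. It was at 9.54, 9.68 and 10.5 CPM in the libraries labelled knockout, against 5.41, 5.08 and 3.37 CPM in the controls, a log2 fold change of 1.11 (SE 0.157). Control 3 was the lowest library. Glial markers, of which 3 of 8 were in the table, summed to 48.4 to 52.9 CPM in the libraries labelled knockout and 52 to 57.5 CPM in controls. Its relative Vcan, the versican of connective tissue, fell to 255.9 ± 19.3 CPM against 323.1 ± 8.82 CPM (log2 −0.34, adjusted p 0.00341). Of 11 genes of hyaluronan and chondroitin sulfate synthesis, 0 rose and 3 fell: the hyaluronan synthase gene Has2 (log2 −0.79, adjusted p 0.00166), Csgalnact1 (−0.38, 0.0211) and Chpf2 (−0.20, 0.0256). Among 6 tested link proteins and cell-surface partners L1cam rose (log2 0.53, adjusted p 0.045) and Ncam1 fell (−0.32, 0.00478). The called shares of these lists were 27.3% and 33.3%, beside 12.3% of all tested genes, and the difference was not tested. The calls of L1cam, Csgalnact1 and Chpf2 were lost in 3 to 6 of 11 alternative fits (adjusted p there 0.0538 to 0.145). Per length, Ncan stood at 1.38 ± 0.0732 CPM per kilobase of exon in the libraries labelled knockout and 0.642 ± 0.152 in controls, far under Vcan at 17.7 ± 1.34 and 22.3 ± 0.61. The promoter of Ncan is shown beside that of Zxdc because it was the other to hold the TCF/LEF motif, as TCAAAG in capitals at position −138.
Ncan, minus strand, GRCm38.p6 chr8:70120795-70121094: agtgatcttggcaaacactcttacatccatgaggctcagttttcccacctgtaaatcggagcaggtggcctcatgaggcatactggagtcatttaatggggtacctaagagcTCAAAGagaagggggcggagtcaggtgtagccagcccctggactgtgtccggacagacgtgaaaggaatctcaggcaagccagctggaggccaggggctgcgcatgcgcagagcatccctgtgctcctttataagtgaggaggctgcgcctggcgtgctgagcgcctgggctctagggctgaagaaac

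The RefSeq table held promoters for 4 of the 8 genes, 5 windows in all. The motif was held by 1 window for RUNX, 1 for EBF and 2 for TCF/LEF. The E-box CACGTG, the PPAR/RXR direct repeat and the palindromic estrogen response element were in 0 of the 5, and in 7.15%, 0.0396% and 0.0548% of all promoters. Zxdc and Ncan, which both held the TCF/LEF letters, lay in opposite directions.

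**Figure D2:**
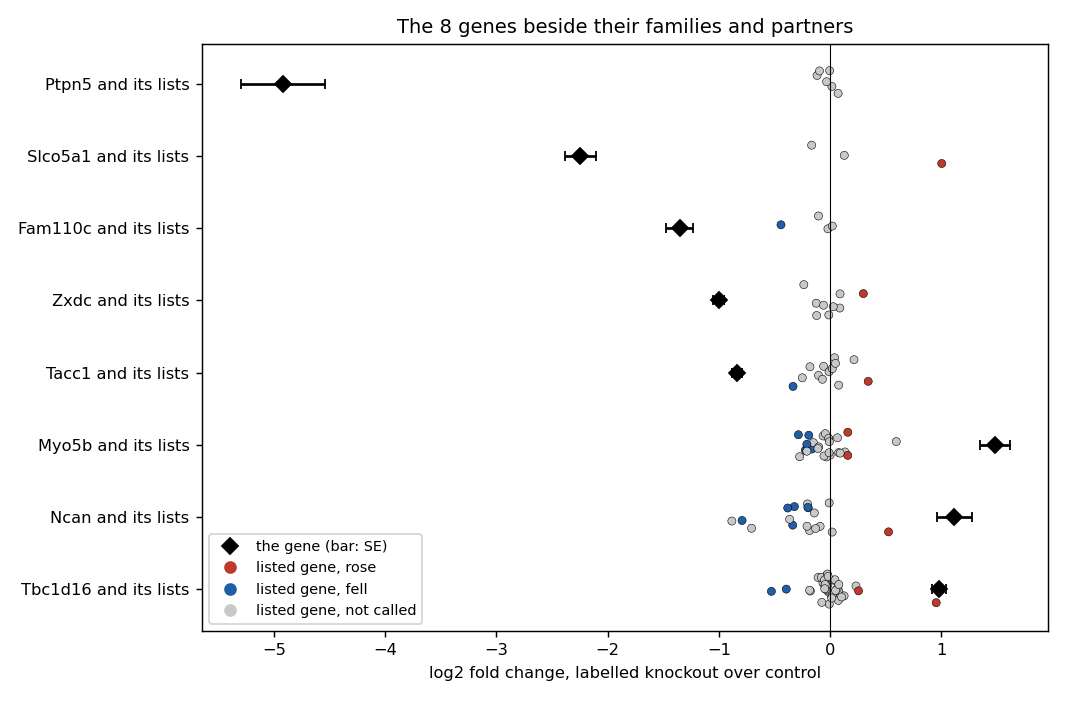
Log2 fold change (x axis, labelled knockout over control) of each of the 8 genes (black diamonds, bar for the SE) and of the tested genes of its family and partner lists (circles; red rose, blue fell, grey not called by edgeR at an adjusted p of 0.05). The diamonds lie from −4.92 to 1.48, while the listed genes lie from −0.88 to 1.00.

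Taking all family and partner lists together, with each gene counted once, 119 of 166 listed genes were tested. Of these 8 rose and 14 fell, which is 18.5% beside 12.3% of all tested genes, and the median log2 fold change was −0.03 beside −0.0025 over all tested genes. The lists were chosen with earlier results of these data known, so the shares are a description and their difference was not tested. The count of called listed genes was 22 with all libraries, where 1629 genes of the whole table were called. It was 14 without control 1, where 976 were called, and 11 without labelled knockout 3, where 621 were. DESeq2 called 16 listed genes and 1289 over the whole table.

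**Figure D3:**
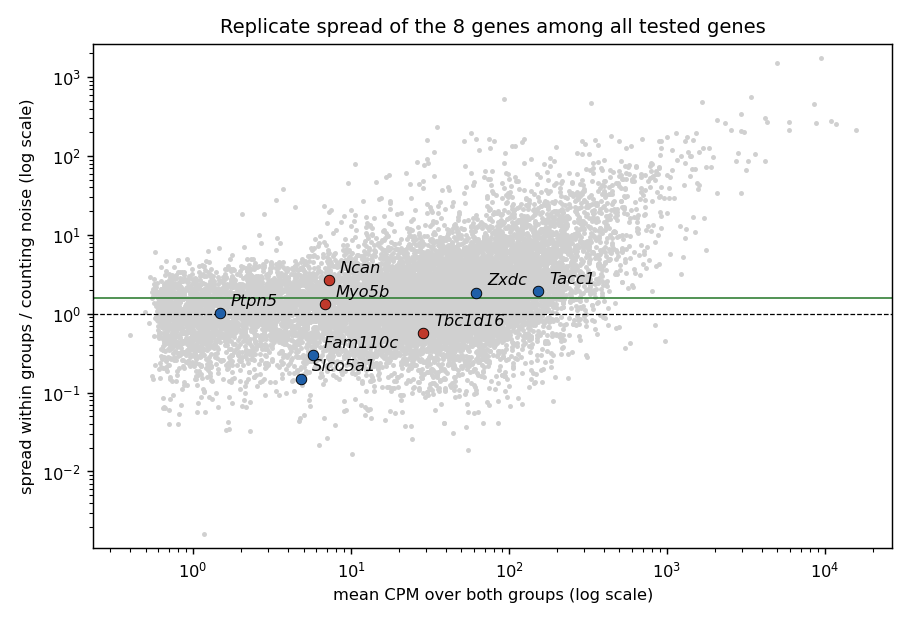
Variance of counts within groups over what counting alone gives (y axis, log scale) against mean CPM over both groups (x axis, log scale), for all tested genes (grey) and the 8 genes (red higher, blue lower in the libraries labelled knockout). The dashed line is counting noise and the green line the median of tested genes, 1.56; Slco5a1, Fam110c and Tbc1d16 lie below both and Ncan, at 2.67, above both.

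The 8 genes were not all tightly replicated, and which were tightest depends on the measure. The variance of counts within the groups was divided by that expected from counting alone, so that 1 means no more than counting noise, and the median over tested genes was 1.56. This ratio tends to grow with a gene's level, as the plot of spread against level shows. Slco5a1 (0.15), Fam110c (0.298) and Tbc1d16 (0.564) lay under 1, as 31.8% of tested genes did. Ptpn5 (1.01) and Myo5b (1.32) lay between 1 and the median. Zxdc (1.85), Tacc1 (1.93) and Ncan (2.67) lay above the median. As a coefficient of variation, the spread in the controls ran from 0.631% for Slco5a1 to 23.7% for Ncan, and in the libraries labelled knockout from 1.6% for Tacc1 to 37.6% for Ptpn5, which rests on 4 reads. The medians over tested genes were 6.01% in controls and 5.34% in the libraries labelled knockout. Tacc1 lay under both (3.08% in controls). In the libraries labelled knockout Slco5a1 (10.9%), Fam110c (10.8%) and Zxdc (6.04%) lay above the median, and in controls all 3 lay under it. Counting alone gives 8.5% for Slco5a1 in controls, so the closeness of its 3 controls is below what reads of that number can resolve.

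Per length, the order of the 8 genes differed between the groups. In the libraries labelled knockout Tacc1 came first, at 9.21 ± 0.147 CPM per kilobase of exon, then Tbc1d16 (5.32 ± 0.224) and Zxdc (5 ± 0.302), whose values lay within about their spread of each other. Ncan (1.38 ± 0.0732), Fam110c (1.04 ± 0.113) and Myo5b (1.03 ± 0.0911) followed, the last pair equal within their spread, then Slco5a1 (0.127 ± 0.0139) and Ptpn5 (0.015 ± 0.00565). In controls Tacc1 (16.4 ± 0.507) and Zxdc (10 ± 0.301) led. Tbc1d16 (2.7 ± 0.0415) and Fam110c (2.68 ± 0.0221) were equal within their spread, and so were Ncan (0.642 ± 0.152) and Slco5a1 (0.607 ± 0.00383). Ptpn5 (0.492 ± 0.0942) and Myo5b (0.37 ± 0.0541) were lowest. The median tested gene stood at 6.91 and 6.92, so in controls 6 of the 8 genes lay under the median and in the libraries labelled knockout 7 did.

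For each gene the most similar pattern over the 6 libraries was sought among the other tested genes averaging 5 CPM or more (10578 genes), as the highest Pearson correlation of log2 CPM. The correlations ran from 0.998 to 0.999, and since the libraries fall into 2 groups they mostly restate the group difference. Zxdc and Fam110c were each other's closest match. Ptpn5 was closest to Tacc1, and Tbc1d16 was closest to Tle3. The other 4 were closest to genes with small differences between the groups: Slco5a1 to Fbxo30 (log2 −0.19), Tacc1 to the laminin gene Lamc1 (−0.12), Myo5b to Tmem147 (0.31) and Ncan to the mitochondrial ribosome gene Mrpl15 (0.26).

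Of the genes next to the 8 on the chromosome, 7 changed. The nearest tested gene on each side was taken by position in GENCODE M21, which gives 16 neighbours, and these genes played no part in the choice of the 8. Of the 16, 3 rose and 4 fell, or 43.8%, beside 12.3% of all tested genes. All 7 moved in the direction of the member they adjoin, and for 7 of the 8 members 1 of the 2 neighbours was called. By the same count, the neighbours of the other 1601 called genes were called in 14.8% of cases (473 of 3195, 340 in the same direction). For those of other called genes past 1.7-fold it was 20.6% (64 of 311, 54 in the same direction). Of the neighbours of genes that were not called, 12.2% were called. These comparison counts were added after the members' neighbours had been seen. DESeq2 called 5 of the 16 and gave no adjusted p for Uroc1.

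The sharpest of these was at Zxdc. Uroc1, which encodes urocanate hydratase of histidine breakdown and lies beside Zxdc on the same strand, had 1, 1 and 1 reads in the libraries labelled knockout and 19, 24 and 14 in the controls. Over the summed counts of 3 and 57 the control level was 16.6 times higher, with a 95% exact interval of 5.39 to 82.7 (counting error only; edgeR adjusted p 0.00202). On the other side Ccdc37, whose end overlaps that of Zxdc on the opposite strand by 12 exon bases, was at 1.247, 0.899 and 1.47 CPM in the libraries labelled knockout and 1.92, 1.9 and 1.89 CPM in controls (adjusted p 0.0831). At Ptpn5 the neighbour Tmem86a, a lysoplasmalogenase gene, fell to 12.2 ± 1.19 CPM against 22 ± 0.298 CPM (log2 −0.84, adjusted p 0.000182), while Zdhhc13 on its other side was at 16.4 ± 0.607 and 15.7 ± 1.03 CPM (adjusted p 0.683).

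At the other loci the called neighbours moved less. Lamb1, a laminin chain gene beside Fam110c, fell by 0.29 on the log2 scale (adjusted p 0.00142), and Sulf1, a heparan sulfate sulfatase gene beside Slco5a1, fell by 0.36 (0.00894). Acaa2, a mitochondrial fatty acid oxidation gene beside Myo5b, rose (log2 0.49, adjusted p 0.00459), as did Rfxank beside Ncan (0.30, 0.0481). The Rfxank call was lost in 6 of 11 alternative fits (adjusted p there 0.0628 to 0.152). Hapln4, a hyaluronan link protein gene on the other side of Ncan, was at 0.543 ± 0.243 and 0.705 ± 0.101 CPM (adjusted p 0.562). Neither neighbour of Tacc1, Plekha2 or the receptor gene Fgfr1, was called (adjusted p 0.433 and 0.258).

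**Figure D4:**
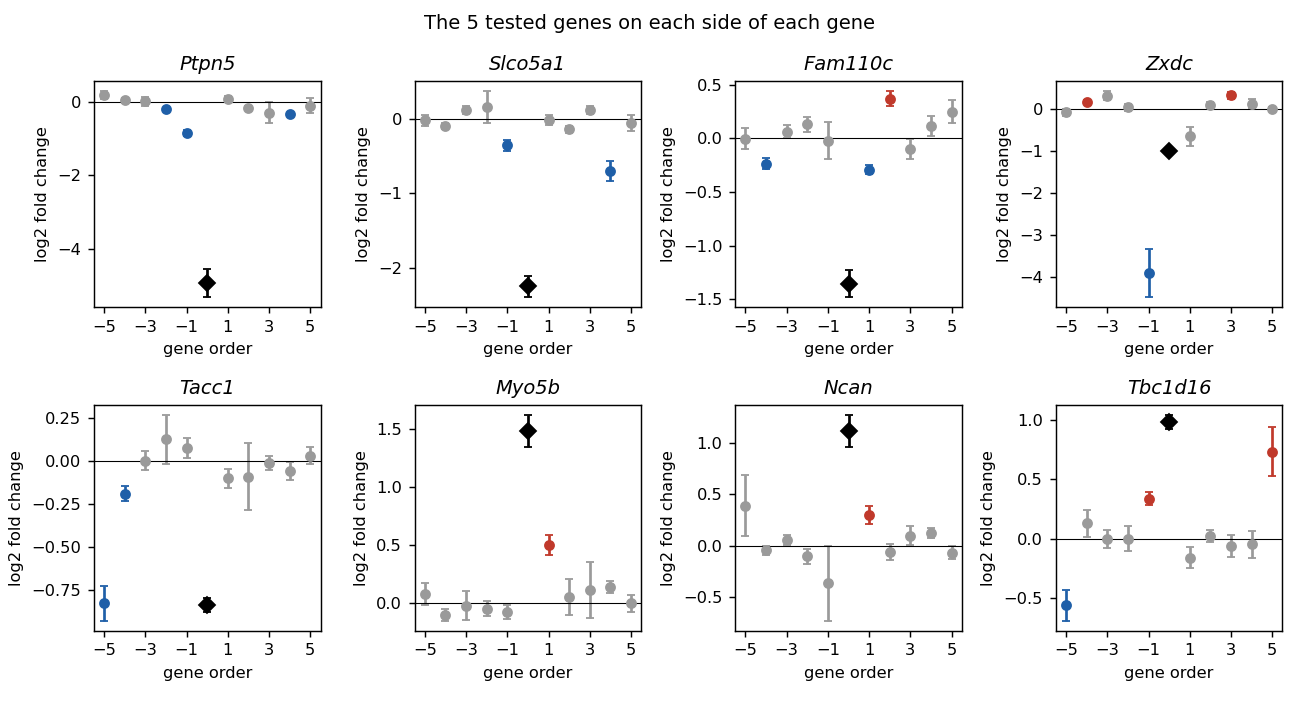
Log2 fold change (labelled knockout over control, bars for the SE, separate y scale for each panel) of the 5 tested genes on each side of each of the 8 genes, in their order along the chromosome (x axis; negative to the side of lower coordinates). Black diamonds are the 8 genes, red circles neighbours that rose, blue fell, grey not called; beyond the nearest gene the neighbours lie mostly near 0, with 18 of 80 called in all.

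Widening to the 5 tested genes on each side, a count chosen after the nearest neighbours had been seen, gave 18 called of 80, or 22.5%, of which 14 moved in the direction of their member. These include the 7 nearest neighbours above. Of the 64 genes past the nearest ones, 11 were called, or 17.2%, beside 12.3% of all tested genes, and 7 of the 11 moved in the direction of their member. Of the 3 called near Ptpn5 all fell, among them Nav2 (log2 −0.34, adjusted p 0.00053) and Spty2d1 (−0.21, 0.0156). Near Zxdc, Plxna1 on the side of Uroc1 (0.18, 0.0152) and Aldh1l1 on the side of Ccdc37 (0.33, 0.0168) rose, against the direction of Zxdc. Dld near Fam110c (0.37, 0.00734) and C1qtnf1 near Tbc1d16 (−0.56, 0.0175) also went against their member.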

How the data were processed

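For 6 libraries the authors deposited whole-number counts under Ensembl IDs and gene names. They also deposited FPKM rounded to whole numbers, treated here as a score and not used for results. The submitters' processing notes name Novoalign 2.8, Picard, DESeq2 and build mm9, without roles. How reads were counted, with which annotation and strand setting, is not given in the sources used here. Of 11 annotated genes that overlap 1 of the 8 genes, the table lists 1 (Ccdc37); reads of overlapping genes cannot be told apart without the strand setting.

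Counts were tested with edgeR 4.0.16 (R 4.3.3): expression filter by group, TMM factors, quasi-likelihood test on the group alone, Benjamini-Hochberg adjustment over 13192 genes, threshold 0.05. A gene rose or fell when it passed. The script was tested on simulated data. The SE is the log2 fold change over the square root of F. Exon lengths and gene order came from GENCODE M21 (GRCm38), in which 12816 tested genes had a match, and promoters from RefSeq; no coordinates were converted. Alternatives were RLE factors, library size alone, no filter, DESeq2 1.42.0, a replicate block and leaving out each library.

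The 8 genes and the lists were chosen with earlier results of these data known. Named besides the 8 were Tle3, paralogs in families of up to 3, called genes of each list, called neighbours and the most similar gene; Slco2a1, Slco3a1, other neighbours, STEP substrates and genes of the wider windows were named after their values were seen. Totals of 14606228 to 19294632 counts leave genes under about 1 CPM with few reads. A few single genes are counted but not reported here by name.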

Additional observations from a re-analysis of the deposited data

How the results depend on the processing

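The 8 genes were recomputed under 11 alternative settings each, 88 values, of which 0 turned direction and 87 moved by less than the SD between replicates. The exception was Ptpn5, at −4.92 with all libraries and from −5.25 to −4.73 without 1 library. Leaving out 1 library at a time gave log2 fold changes of −2.33 to −2.19 for Slco5a1, −1.45 to −1.29 for Fam110c, 1.37 to 1.6 for Myo5b and 0.916 to 1.26 for Ncan. Genes changed over the whole table numbered 1629, and 621 to 1895 without 1 library. Changed family and partner genes numbered 22, and 11 to 21 without 1 library, and changed nearest neighbours 7, and 6 to 7. Fits without a library have fewer samples to test with. With the replicate number as a block the counts were 1809, 25 and 7, within 1.5 times of the fit without it; Rab10 lost its call there. Deviations of same-numbered libraries correlated at −0.04, 0.19 and 0.03, and those of different-numbered ones at −0.235 to 0.227. Deviations from the mean of 3 libraries are tied to each other, so this cannot settle whether the numbers pair the samples. Depth limits Ptpn5 and Uroc1, which had 4 and 3 reads in the libraries labelled knockout.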
